A study of Mus musculus with 5 samples.

Results

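Single hepatocyte 1 was 1 of 4 single mouse liver cells whose DNA methylation was set against a reference pool of liver cells, and its departures from that pool are described here. Its members were all entries of its 2 deposited lists that spanned 10 kb, which came to 614 bins of the 1476 such bins in the 4 cells. Of these, 588 were listed as less methylated than the pool (loss bins) and 26 as more methylated (gain bins). All samples came from livers of C57BL/6 mice perfused with collagenase, and methylation was read by reduced representation bisulfite sequencing after digestion with MseI, an enzyme that cuts DNA at TTAA. The carrier added to cells 1 and 2 was salmon DNA (2 ng), and that added to cells 3 and 4 was tRNA cDNA (2 ng). No allele or treatment beyond the perfusion is named for any sample, and the labels give neither the animal behind a cell or pool, nor its age or sex, nor the number of cells pooled. Single cell 1 was 1 library without a replicate, so tests between cells compare libraries and not animals. The calls hold no expression values, so the identity of the cell as a hepatocyte rests on the labels.

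Cytosine methylation in mammals lies mostly in CG dinucleotides. It covers most of the genome, is sparse at CG-rich promoters, and is common in the bodies of transcribed genes. DNMT1 copies methylation to the new strand when DNA is replicated, and it can be lost when that copying fails or when TET enzymes oxidise it. Hepatocytes carry out most of the liver's metabolism and divide rarely in adults.

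An annotated promoter lay inside a minority of the bins. The share of all 10-kb bins of the genome that hold one was not computed. A promoter window of 300 bases, from 250 before a gene start to 50 after it, lay whole inside 90 of the 588 loss bins (15.3%, exact 95% interval 12.5 to 18.5%) and 7 of the 26 gain bins (26.9%, interval 11.6 to 47.8%). These were 115 of 30970 RefSeq promoter windows (0.371%) for loss and 11 (0.0355%) for gain. The sequences below are the 250 bases before the start, from RefSeq's GRCm38.p6, 5′ to 3′, with each CG in capitals as the place where methylation can sit. They show how widely the promoters differ in the number of such places. The loss promoters shown are those of the lowest-scoring bins listed in cell 1 alone. Ifrd2, Hyal3 (a hyaluronidase gene) and Naa80 (which encodes the enzyme that acetylates the actin N-terminus) shared a bin from 107580000 to 107590000 on chromosome 9 with a score of 154. Ppp1r21, an endosome protein gene, lay in a bin with a score of 250. The non-coding Gm35829 (91) lay beside the Polycomb gene Cbx2, and the non-coding Tincr (167) beside Safb2.
Ifrd2, chr9:107587468-107587717, plus strand: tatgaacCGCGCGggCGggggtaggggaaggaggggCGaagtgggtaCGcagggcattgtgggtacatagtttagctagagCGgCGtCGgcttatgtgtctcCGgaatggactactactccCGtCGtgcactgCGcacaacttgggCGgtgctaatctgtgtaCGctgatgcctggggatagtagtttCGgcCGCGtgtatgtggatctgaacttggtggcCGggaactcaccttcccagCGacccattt
Hyal3, chr9:107581046-107581295, plus strand: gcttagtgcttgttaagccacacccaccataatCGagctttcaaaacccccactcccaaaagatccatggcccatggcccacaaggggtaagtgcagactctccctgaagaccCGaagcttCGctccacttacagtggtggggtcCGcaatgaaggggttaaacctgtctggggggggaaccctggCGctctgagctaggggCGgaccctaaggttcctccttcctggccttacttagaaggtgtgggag
Naa80, chr9:107580419-107580668, plus strand: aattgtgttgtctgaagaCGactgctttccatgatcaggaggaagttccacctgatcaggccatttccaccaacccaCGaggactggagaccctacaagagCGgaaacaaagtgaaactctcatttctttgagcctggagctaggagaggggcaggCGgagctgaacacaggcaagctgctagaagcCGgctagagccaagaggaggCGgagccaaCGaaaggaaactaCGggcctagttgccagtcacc
Ppp1r21, chr17:88529874-88530123, plus strand: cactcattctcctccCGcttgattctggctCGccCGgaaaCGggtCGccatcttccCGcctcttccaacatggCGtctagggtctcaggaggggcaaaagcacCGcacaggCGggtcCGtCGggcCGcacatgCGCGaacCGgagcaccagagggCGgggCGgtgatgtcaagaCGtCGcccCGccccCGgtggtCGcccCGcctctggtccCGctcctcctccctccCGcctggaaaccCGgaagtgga
Gm35829, chr11:119023840-119024089, minus strand: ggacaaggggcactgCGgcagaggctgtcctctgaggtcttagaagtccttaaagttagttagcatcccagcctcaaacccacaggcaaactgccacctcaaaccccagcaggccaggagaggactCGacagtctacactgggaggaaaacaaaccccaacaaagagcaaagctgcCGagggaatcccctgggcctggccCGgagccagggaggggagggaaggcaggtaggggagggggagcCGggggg
Tincr, chr17:56554388-56554637, minus strand: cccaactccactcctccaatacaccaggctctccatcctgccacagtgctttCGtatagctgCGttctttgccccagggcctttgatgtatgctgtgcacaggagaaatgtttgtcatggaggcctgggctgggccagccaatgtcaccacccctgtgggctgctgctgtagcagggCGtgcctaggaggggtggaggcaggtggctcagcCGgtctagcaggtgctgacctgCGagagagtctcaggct

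The gain promoters shown belong to the highest-scoring gain bins that held one, with Cpt1a added because it is the gene of hepatocyte function among them. Cpt1a encodes the carnitine palmitoyltransferase that brings long-chain fatty acids into liver mitochondria, and its bin had a score of 846. Nagpa, whose enzyme uncovers the mannose 6-phosphate signal of lysosomal enzymes, had a score of 909. Mprip, a myosin phosphatase-interacting protein gene, had 867. Ubr4, a ubiquitin ligase gene of the N-degron pathway, had 857. The non-coding Gm39284 lay with Pcnx2 in a bin of score 909.
Cpt1a, chr19:3323051-3323300, plus strand: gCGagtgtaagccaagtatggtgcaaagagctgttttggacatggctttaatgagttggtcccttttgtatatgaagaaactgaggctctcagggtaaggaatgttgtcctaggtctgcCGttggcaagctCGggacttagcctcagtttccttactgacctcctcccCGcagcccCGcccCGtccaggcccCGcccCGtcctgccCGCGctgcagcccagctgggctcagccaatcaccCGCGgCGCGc
Nagpa, chr16:5204013-5204262, minus strand: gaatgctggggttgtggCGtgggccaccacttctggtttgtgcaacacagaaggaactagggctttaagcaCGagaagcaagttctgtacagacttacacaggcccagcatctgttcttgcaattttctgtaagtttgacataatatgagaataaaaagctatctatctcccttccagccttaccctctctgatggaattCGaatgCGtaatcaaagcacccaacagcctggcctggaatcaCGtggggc
Mprip, chr11:59662245-59662494, plus strand: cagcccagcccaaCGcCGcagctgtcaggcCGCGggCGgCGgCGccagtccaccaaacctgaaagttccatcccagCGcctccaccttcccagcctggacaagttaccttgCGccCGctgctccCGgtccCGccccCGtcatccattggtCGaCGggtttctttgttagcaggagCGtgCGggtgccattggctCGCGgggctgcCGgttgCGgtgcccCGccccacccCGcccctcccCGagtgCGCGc
Ubr4, chr4:139380409-139380658, plus strand: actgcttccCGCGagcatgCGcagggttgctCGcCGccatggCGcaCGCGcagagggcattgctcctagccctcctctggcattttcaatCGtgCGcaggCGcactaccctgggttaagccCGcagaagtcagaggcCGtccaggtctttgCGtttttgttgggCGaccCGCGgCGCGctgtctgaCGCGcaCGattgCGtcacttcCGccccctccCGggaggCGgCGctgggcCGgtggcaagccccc
Gm39284, chr8:125773918-125774167, plus strand: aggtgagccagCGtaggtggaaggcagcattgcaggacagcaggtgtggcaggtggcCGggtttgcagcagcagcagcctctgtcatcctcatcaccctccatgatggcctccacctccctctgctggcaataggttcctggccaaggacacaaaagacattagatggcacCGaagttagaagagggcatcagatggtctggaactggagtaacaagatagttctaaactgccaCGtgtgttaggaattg

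The number of CG dinucleotides in these 250 bases was 20 at Ifrd2, 6 at Hyal3, 8 at Naa80, 26 at Ppp1r21, and 5 each at Gm35829 and Tincr. It was 14 at Cpt1a, 5 at Nagpa, 26 at Mprip, 28 at Ubr4 and 4 at Gm39284. Loss and gain were thus both listed around CG-rich and CG-poor starts. Over whole windows of 300 bases, the 115 promoters in loss bins had a median of 12 CG (quartiles 5 and 25.5), and all 30970 had a median of 7 (quartiles 3 and 20). A window with 10 or more CG made up 58.3% of those in loss bins (interval 48.7 to 67.4%) and 43.8% of all. Among windows of protein-coding genes alone, the share was 65.4% of 81 in loss bins (interval 54.0 to 75.7%) and 57.2% of all 20036. That interval holds the share of all protein-coding windows. The MseI site TTAA, which reads the same on both strands, was present in 48 of the 115 windows (41.7%, interval 32.6 to 51.3%) and in 52.4% of all windows. Promoters in loss bins missing from the other cells had a median of 13.5 CG (84 windows), and those in bins that another cell also listed had 11 (32 windows), with 1 window in bins of both kinds. The 115 windows belong to 104 genes and lie in 90 bins, so the intervals of window shares count windows that are not independent. The bins the assay could cover are unknown, so whether these shares differ by coverage was not tested.

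The authors' score of a bin, a whole number with no stated definition, separated the directions without overlap. The 588 loss bins ran from 0 to 714, with a median of 438 and quartiles of 333 and 545. The 26 gain bins ran from 846 to 917, with a median of 864.5. No bin of cell 1 had a score between 714 and 846. The lowest gain score was 773 in cell 2, 792 in cell 3 and 786 in cell 4, so the gain list of cell 1 began higher than those of the other cells. The median loss score was 436.5 in cell 2, 455 in cell 3 and 333 in cell 4. The gain lists held 26 bins in cell 1, 83 in cell 2, 79 in cell 3 and 13 in cell 4. The sources used here do not give how a limit was set in each cell, and its part in the length of a gain list was not tested.

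**Figure D1:**
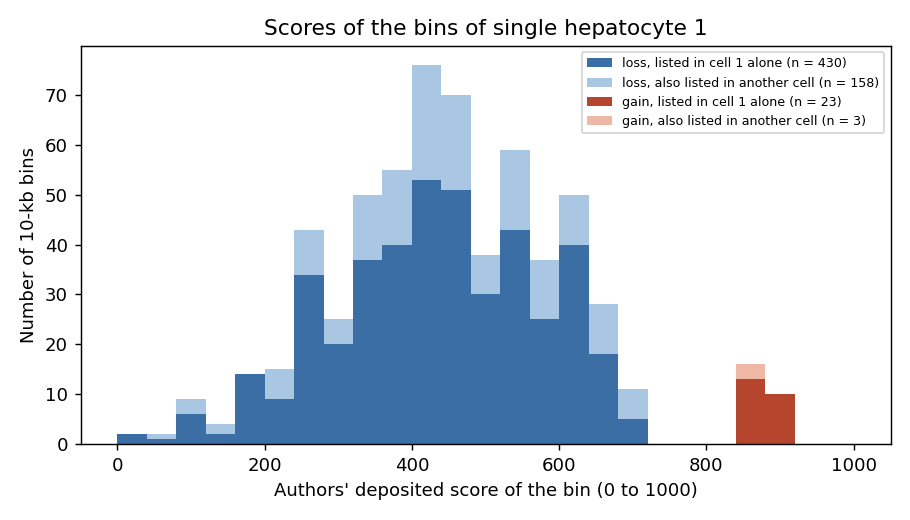
Histogram of the authors' score (horizontal axis, 0 to 1000) against the number of 10-kb bins of cell 1 (vertical axis), stacked by direction and by whether another cell listed the same bin. Loss bins lie at or below 714 and gain bins at or above 846, and bins listed in cell 1 alone make up most of the bars at nearly every score.

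Most bins of cell 1 were missing from the files of the other cells. No entry of cells 2, 3 or 4 had the same chromosome and start for 430 of 588 loss bins (73.1%, exact 95% interval 69.4 to 76.7%) and for 23 of 26 gain bins (88.5%, interval 69.9 to 97.6%). Of the other 158 loss bins, 94 were in 1 other cell, 49 in 2 and 15 in all 3. Cell 2 listed 122 of the 588 (20.7%), which was 28.6% of its own 426 loss bins. Cell 3 listed 74 (12.6%), or 40.2% of its 184, and cell 4 listed 41 (6.97%), or 53.2% of its 77. The shorter the list of the other cell, the larger its shared part. Counted in the same way for each cell, loss bins missing from the rest made up 62.9% in cell 2, 45.1% in cell 3 and 18.2% in cell 4. For gain bins these shares were 95.2% (79 of 83), 100% (79 of 79) and 92.3% (12 of 13). Each was above that of cell 1, but the interval of cell 1 holds the shares of cells 2 and 4. Cell 2 was the only other cell with the salmon DNA carrier, and carrier and cell cannot be told apart. A bin missing from a list was not called there. Whether it was covered by reads is unknown.

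Missing bins were spread over the whole range of scores. The share of loss bins missing elsewhere was 80.6% for scores under 200 (25 of 31 bins, interval 62.5 to 92.6%) and lay between 70.8% and 75.4% in each of the higher classes, up to 70.8% of 89 bins with a score of 600 or more (interval 60.2 to 80.0%). The median score was 438 both for all loss bins and for those missing elsewhere. It was 429 for bins in 1 other cell (94 bins), 474 for those in 2 (49 bins) and 524 for those in all 3 (15 bins). The intervals of the score classes overlap throughout.

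Some missing bins lay beside a bin of another cell at a slightly different start. Of the 430 loss bins, 13 overlapped a loss bin of another cell. The bin at Hpd, which encodes an enzyme of tyrosine breakdown, started at 123172000 on chromosome 5 (score 692), 2 kb from a loss bin of cell 3 (583). The bin at Pop5 and Rnf10 started at 115230000 on chromosome 5 (417), 2 kb from a bin of cell 2 (583) and 1 kb from a bin of cell 3 (545). The bin at Zbtb42, a zinc finger gene, started at 112678000 on chromosome 12 (579), 1 kb from a bin shared by cells 2 (500) and 3 (462). The bin at Apol10b, an apolipoprotein L family gene, started at 77592000 on chromosome 15 (500) and overlapped 2 bins of cell 3 (455 and 364). Among gain bins, that at Gm38708 (917) started 5 kb from a gain bin of cell 2 (778). These examples were picked after their values were seen. Counting any overlap with a bin of either direction as a match left 416 loss and 22 gain bins missing.

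Bins of opposite direction met in 2 places, both of which escape a match by start. The loss bin of cell 1 from 20519000 to 20529000 on chromosome 16 (score 600) overlapped by 3 kb a gain bin of cell 3 (812), and the overlap lay in Dvl3, a Dishevelled gene that relays Wnt signals. The loss bin from 88708000 to 88718000 on chromosome 3 (417) overlapped by 6 kb a gain bin of cell 2 (786), and the overlap held an end of Khdc4 and the promoter of Rit1, a Ras-related GTPase gene. That loss bin was also listed by cells 2 (91), 3 (500) and 4 (250), so cell 2 had a loss and a gain bin that overlapped each other. No test was made of so few places.

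In bins that cell 1 shared with another cell, the scores of the cells were nearly uncorrelated. Over the 122 loss bins shared with cell 2, the score of cell 1 was lower in 64, higher in 57 and equal in 1, with medians of 456.5 and 439. Over the 74 shared with cell 3, it was lower in 36, higher in 36 and equal in 2 (medians 449.5 and 455). Over the 41 shared with cell 4, it was lower in 7, higher in 33 and equal in 1 (medians 500 and 316). Pearson's r across bins was -0.01 for cell 2, -0.02 for cell 3 and -0.04 for cell 4. These are descriptions across bins that share the pool and were called as loss in both cells.

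**Figure D2:**
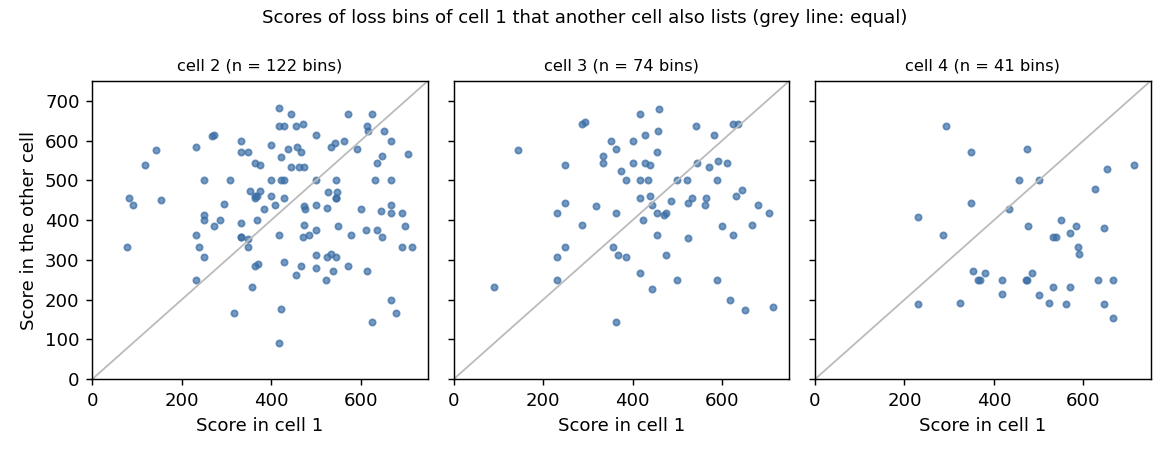
Score of each loss bin in cell 1 (horizontal axis) against its score in cell 2 (122 bins), cell 3 (74 bins) and cell 4 (41 bins), 1 point per bin, with a grey line where both are equal. The points spread over the whole field, and those of cell 4 lie mostly under the line (33 of 41).

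Of the 49 loss bins that cell 1 shared with exactly 2 other cells, those with its lowest scores are given here. They are described without a test and were picked for their scores. At Tmem114, a claudin-family gene, cells 1, 2 and 3 had scores of 91, 438 and 231 (chromosome 16, start 8419000). At Fhl2, which encodes a LIM-domain cofactor, they had 143, 577 and 577 (chromosome 1, start 43144000). At Prkca, the protein kinase C alpha gene, they had 231, 583 and 417 (chromosome 11, start 108281000). At Smurf2, a ubiquitin ligase gene that limits TGF-beta signalling, cells 1, 3 and 4 had 231, 250 and 190 (chromosome 11, start 106884000). At Fignl2, they had 231, 308 and 409 (chromosome 15, start 101057000). Cell 1 had the lowest score of the listing cells at each of these except Smurf2, where all were low.

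Loss and gain bins fell on genes in like shares. The midpoint of a loss bin lay within 1000 bp of a gene end in 64 cases (10.9%), in a gene body in 322 (54.8%) and between genes in 202 (34.4%). Gain bins fell at a gene end in 2 cases, in a gene body in 16 and between genes in 8. The genic share was 65.6% for loss (interval 61.7 to 69.5%) and 69.2% for gain (interval 48.2 to 85.7%), an odds ratio of 0.85 (two-sided Fisher's exact adjusted p = 0.893 over 5 tests). Loss bins missing elsewhere were genic in 284 of 430 (66.0%) and those listed elsewhere in 102 of 158 (64.6%), an odds ratio of 1.07 (Fisher's exact adjusted p = 0.893). The genic share of loss bins was 66.2% in cell 2, 60.3% in cell 3 (interval 52.9 to 67.5%) and 68.8% in cell 4, with odds ratios of cell 1 over them of 0.98, 1.26 and 0.87 (Fisher's exact adjusted p = 0.893 each). No difference was detectable, and the interval of gain is wide enough to hold shares far below or above that of loss. The tests count neighbouring bins as independent, and the lists of cells 2 to 4 hold bins that cell 1 also lists, so the compared sets are not independent either.

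Within genes, loss had no favoured place along the transcript. For the 236 pairs of a loss bin midpoint and a protein-coding gene of known strand, 5 equal segments of the gene from start to end held 49, 42, 50, 48 and 47. The 10 such pairs for gain lay near the ends of genes more than in the middle, with 4 in the segment at the start, 4 in that at the end and 1 in each segment next to these. The table of genes gives no exons, so exon and intron were not told apart. By the kind of gene within 2000 bp, 382 of 588 loss bins (65.0%) touched a protein-coding gene, 78 (13.3%) touched only non-coding genes or pseudogenes and 128 (21.8%) touched none. For gain these were 17, 4 and 5 of 26.

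Long genes held a loss bin more often than short ones. A longer gene has more room for a bin, and whether the rise goes beyond that room was not tested. Of 20630 protein-coding genes, 430 (2.08%) had a loss bin of cell 1 within 2000 bp and 19 (0.0921%) had a gain bin. Of all 47283 annotated genes, 598 (1.26%) and 33 (0.0698%) did. The share with a loss bin was 0.881% of genes under 10 kb (65 of 7381), 4.20% of genes from 100 to 300 kb (74 of 1760) and 8.75% of genes of 300 kb or more (46 of 526, interval 6.47 to 11.5%). The median length was 43.2 kb for genes with a loss bin, 53.9 kb for those with a gain bin and 17.3 kb for all. Lists of genes are therefore read beside the length of their members.

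**Figure D3:**
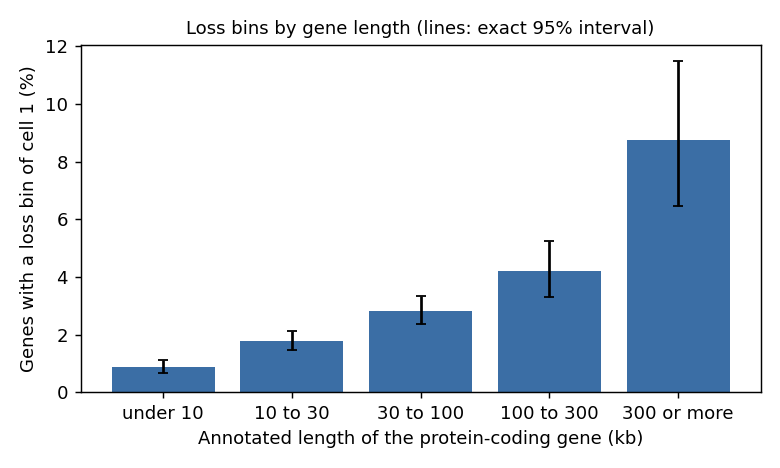
Share of protein-coding genes with a loss bin of cell 1 within 2000 bp (vertical axis, percent, bars from 0) in 5 classes of annotated gene length in kb (horizontal axis), with exact 95% intervals. The share climbs from 0.881% under 10 kb to 8.75% at 300 kb or more.

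A set of 15 protein-coding genes had 2 or more loss bins of cell 1 that did not overlap. Dscaml1, a cell adhesion gene of 326.3 kb on chromosome 9 (45427433 to 45753713), had 4, starting at 45473000, 45555000, 45571000 and 45610000, with scores of 455, 417, 250 and 429. All 4 were missing from the other cells, as were 73.1% of all loss bins. Ror2, a receptor tyrosine kinase gene for Wnt5a on chromosome 13 (53109317 to 53286124), had bins of 417 and 100, and only the first was listed by another cell. Arid1b, a subunit gene of the SWI/SNF chromatin remodeller on chromosome 17, had 286 and 250, both in cell 1 alone. Spg7, which encodes the mitochondrial protease paraplegin on chromosome 8 (123065508 to 123097760), had 3 bins of 583, 263 and 500, the last 2 overlapping and the last also reaching the ribosomal protein gene Rpl13. None of the 3 was listed elsewhere.

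Others with 2 bins spanned several kinds of gene. Nrip1, a corepressor of nuclear receptors, had scores of 333 and 273. Dock5, a guanine nucleotide exchange factor gene, had 417 and 364, and the meiosis gene Meiob had 333 and 375. The kainate receptor gene Grik4 had 417 and 636, and the Wnt pathway transcription factor gene Tcf7l1 had 583 and 459. Fam155a had 571 and 455. Ppp1r12b had 364 and 231, Snx25 had 526 and 182, and Tenm3 had 643 and 364. Of the 430 protein-coding genes with a loss bin, 415 had a single one by this count, 14 had 2 and Dscaml1 had 4.

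Of the 430 loss bins missing elsewhere, 25 had a score under 200, and 14 of these had a protein-coding gene within 2000 bp while 11 had none. The lowest of the 11 were a bin at the non-coding Gm40102 (0) and bins without a gene on chromosomes 7 (77) and X (91). The genes of the other 14, and of the next bin by score, are given here. The bin in Stpg2, a sperm-tail protein gene, had a score of 0 (chromosome 3, 139438000 to 139448000, near the middle of a gene of 504.4 kb). A score of 91 was given to bins at Cbx2, a Polycomb subunit gene, at Zmynd11, which encodes a reader of histone H3.3 methylation, at Ddx55 with the translation factor gene Eif2b1, and at Zfp536. Ror2 had 100 and the bin of Hyal1, Hyal3, Naa80 and Ifrd2 had 154. Slit3 (an axon guidance ligand gene), Ppm1l (a phosphatase gene) and Safb2 had 167 each. A score of 182 was given at Grb2, an adaptor of growth factor receptors, in Gnas, which encodes the stimulatory G protein alpha subunit, in the NMDA receptor gene Grin2b and in Snx25. Dcakd had 200. By its midpoint, the bin lay between genes at Zfp536, Safb2 and Grb2.

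At the other end of the list, the 2 highest loss bins missing elsewhere had a score of 714 and no protein-coding gene. The highest scores among loss bins missing elsewhere with a protein-coding gene were 692 at Hpd and at Cln8, an endoplasmic reticulum protein gene, and 688 in Fam120a. A score of 667 followed in 8 such bins, among them that of Aldh2, the mitochondrial aldehyde dehydrogenase that clears acetaldehyde, with Acad12 (chromosome 5, 121588000 to 121598000), and that of Anapc7. The other 6 of these lay at Ptprc, Psme3 with Aoc2, Fbxo47, Cacng2, Bag6 and Unc93b1. The bin in Abcb11, the bile salt export pump gene, had 455, near the median of all loss bins, and lay 32.6 kb from the gene start. The pool's own values were not used here, so how far a score places the cell from the pool is unknown.

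The 26 gain bins touched 19 protein-coding genes and are given in full by role. Signalling and cytoskeleton genes were Camk1d, a calmodulin-dependent kinase gene (846, also in cell 2 with 812), Gnb4, a G protein beta subunit gene (895), Arhgef11, a guanine nucleotide exchange factor gene, with Lrrc71 (895) and Mprip (867). Transcription factor genes were Elf2 (909), Zfp369 (846) and Zfp37 (846). Genes of protein handling and membrane traffic were Rnf144b, a ubiquitin ligase gene (909), Ubr4 with the membrane protein insertion gene Emc1 (857), Nagpa (909), Scamp1, a secretory carrier membrane protein gene (857), and Kpna1, a nuclear import receptor gene (846, also in cell 2 with 833). Mitochondrial and redox genes were Cpt1a (846), Letm1, an inner membrane ion exchanger gene (846), and Prdx6b (909). The olfactory receptor gene Olfr1367 (846) and Pcnx2 (909) completed them.

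Gain bins without a protein-coding gene were 9. The bin from 48340000 to 48350000 on chromosome 6 (857) held 3 tRNA genes, n-TCgca14, n-TCgca5 and n-TCgca21, inside the non-coding Gm16630. The non-coding Gm30362 also lay within 2000 bp of it. The other bins with only non-coding genes were at Gm46298 (862, also in cell 2 with 867), Gm38708 (917) and Gm30093 (846). No gene lay within 2000 bp of 5 bins, 2 on chromosome 2 (917 each), 2 on chromosome 17 (857 and 875) and 1 on chromosome 11 (875). Gain and loss were usually far apart. The median distance from a gain bin to the nearest loss bin of cell 1 was 1408 kb and the lowest was 78 kb, between a gain bin (857) and a loss bin (333) on chromosome 17. Of the 26 gain bins, 2 lay within 100 kb of a loss bin.

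Gene lists fitted to liver and to methylation were counted next, with the 2.08% of all protein-coding genes as the yardstick for loss and 0.0921% for gain. Of 46 annotated genes of hepatocyte function, 2 had a loss bin (4.35%, exact 95% interval 0.531 to 14.8%), Abcb11 (455) and Hpd (692), and 1 had a gain bin, Cpt1a. The median length of the listed genes was 12.2 kb. The albumin gene had neither. Of 21 liver transcription factors, such as Hnf4a and Cebpa, 0 had a bin in either direction (upper bound of the interval 16.1%). Of 37 genes of insulin and growth hormone signalling, 0 had one (upper bound 9.49%).

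Of 33 markers of other liver cell types, 4 had a loss bin (12.1%, interval 3.40 to 28.2%). Each of these bins was missing from the other cells, as were 73.1% of all loss bins. The 4 markers were Cd68 of macrophages (333), Des of stellate cells (438), Epcam of biliary cells (364) and Ptprc of leukocytes (667). The other 29, which include the endothelial markers Pecam1, Stab2 and Lyve1, had none, and 0 of the 33 had a gain bin. Only at Cd68 did the bin hold the promoter of the marker, and that bin also touched Mpdu1, Eif4a1 and Senp3. The bin of Des held the promoter of Speg, and that of Epcam lay between genes by its midpoint. The median length of the list was 16.5 kb, close to that of all genes. With 1 cell, this count has no replicate check.

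The list of long genes kept under adhesion and synapse had the most members with a loss bin. These were 10 of 87 (11.5%, interval 5.65 to 20.1%), at a median length of 928.6 kb. Beside Dscaml1, Tenm3 and Slit3 they were Cdh13 (286), Cntnap4 (273), Csmd2 (364), Ctnnd2 (636), Grm8 (364), Sgcz (417) and Sox5 (333). Sox5 is a transcription factor gene that the list also holds. The bin of Grm8, a glutamate receptor gene, held the gene's promoter. Of 66 ion channel genes with a median length of 299.3 kb, 6 had a loss bin (9.09%, interval 3.41 to 18.7%). They were Grik4, Grin2b and the calcium channel subunit genes Cacnb2 (562) and Cacng2 (667), with Kcnn3 (286), a potassium channel gene, and Kcnip1 (571), whose protein binds such channels. Among all protein-coding genes, a loss bin was found in 4.20% of those from 100 to 300 kb and in 8.75% of those of 300 kb or more.

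Of 67 genes of Notch, Wnt, TGF-beta and Hippo signalling, 4 had a loss bin (5.97%, interval 1.65 to 14.6%). They were the Notch ligand gene Jag2 (500), the Notch coactivator gene Maml3 (77), Tcf7l1 and the Hippo pathway transcription factor gene Tead1 (381). Of 50 imprinted genes, 3 had one (6.00%, interval 1.25 to 16.6%): Gnas (182), Dlk1 (417) and Slc22a3 (417). All 3 of these bins were missing from the other cells, as were 73.1% of all loss bins. None of the 3 held an annotated promoter of the named gene. The bin of Gnas also lay within 2000 bp of the non-coding Gnasas1. Of 74 developmental regulators, Tbx5 had one (364), of 33 genes of DNA repair, cell cycle and ageing, Parp1 had one (500, with the promoter inside the bin), and of 14 genes of the methylation machinery, Zbtb38, which encodes a methyl-CpG binding protein, had one (421). Dnmt1, Dnmt3a, Dnmt3b, Tet2 and Tet3 had none. The other listed TET gene, Tet1, and Dnmt3l lie on chromosome 10, which was not analysed here. Cpt1a was the only gene of any list with a gain bin.

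**Figure D4:**
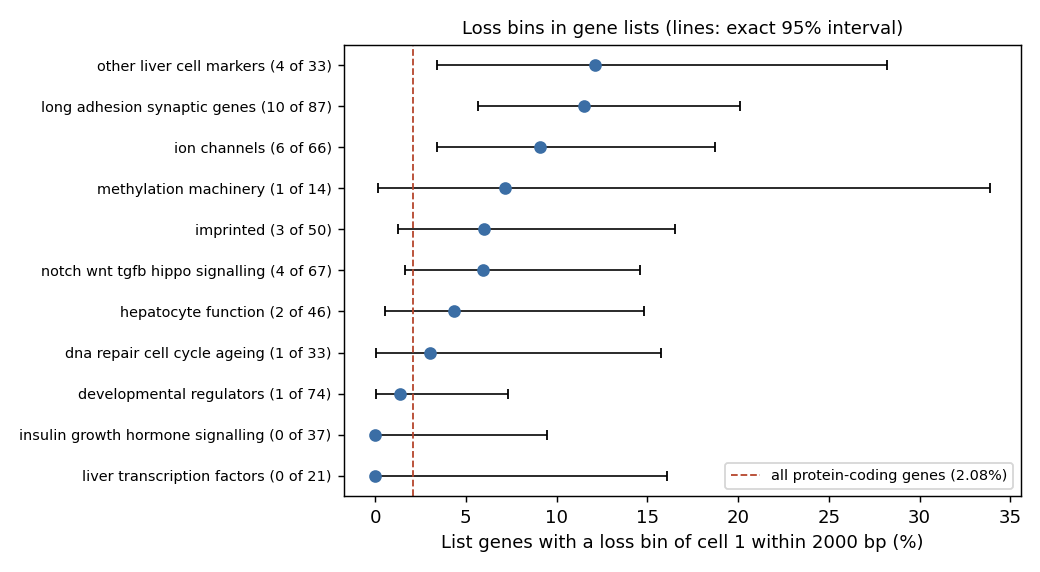
Share of the genes of each list with a loss bin of cell 1 within 2000 bp (horizontal axis, percent, points) with exact 95% intervals, and the 2.08% of all protein-coding genes as a broken line. The highest shares are those of other liver cell markers (4 of 33), long adhesion and synaptic genes (10 of 87) and ion channels (6 of 66), and the intervals of most lists cross the line.

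MicroRNA genes lay in 8 loss bins and 0 gain bins. The mature sequences in the lowest-scoring of these bins and in 1 that other cells also listed are shown, from RefSeq's GRCm38.p6, with the seed (bases 2 to 8) in capitals. Mir6931 lay in the bin of Dcakd (score 200, cell 1 alone). Mir190b lay in a bin with Tpm3 (617), which cells 2 (625) and 3 (200) also listed.
mmu-miR-6931-5p: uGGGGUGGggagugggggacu
mmu-miR-6931-3p: cCCAACCUcuucauaccccag
mmu-miR-190b-5p: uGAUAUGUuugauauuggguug
The 3 seeds differ from one another. Other miRNA genes in loss bins included Mir1934 (333, in the bin of Cd68), Mir6941 (500, in that of Jag2), Mir1905 (286), Mir6240 (636) and Mir7029 (545). Each of these bins was missing from the other cells by its start. The remaining bin with a miRNA gene, not named here, had a score of 385 and was also listed by 1 other cell.

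Most loss bins stood alone. A second loss bin of cell 1 lay within 100 kb of 98 of the 588 (16.7%, interval 13.7 to 19.9%), and 22 overlapped another, forming 11 stretches of 2 bins, the widest 19 kb. In cells 2, 3 and 4 the shares with a neighbour within 100 kb were 11.7%, 7.61% and 5.19%, an order that runs with the length of the lists. The stretches lay at Igh (scores 636 and 692), Bag6 (455 and 667), Rab1b with Klc2 (545 and 667), Sipa1 with Pcnx3 (545 and 333), Slk (308 and 471), the non-coding 6430710C18Rik (433 and 474), Sall4 with Atp9a (357 and 500), Chd1l with Gm40102 (0 and 364), A630023P12Rik (133 and 455), Gjc3 (333 and 353) and Spg7. Overlapping bins cover only partly the same DNA, and the less of it the wider their stretch. The stretch with scores of 0 and 364 was 17000 bp wide. Only its bin of 364 lay within 2000 bp of Chd1l, the remodeller gene. The stretch at Gjc3 was 15000 bp wide and that at Bag6 11000 bp. Runs of 3 or more loss bins with gaps of at most 100 kb were found in 6 places. The longest had 4 bins each, at Dscaml1 over 147 kb and on chromosome 8 from 37152000 to 37285000, where scores were 500, 615, 538 and 500 and no protein-coding gene lay within 2000 bp.

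Over the chromosomes, loss bins of cell 1 were spread unevenly. They numbered 0.237 per Mb over the spans between the outermost genes, from 0.0820 on X (14 bins) and 0.126 on chromosome 18 (11 bins) to 0.411 on chromosome 17 (39 bins) and 0.464 on chromosome 19 (27 bins). Chromosomes with more genes per Mb tended to have more loss bins per Mb (Pearson's r 0.40 and Spearman's rank correlation 0.44 over 19 chromosomes, as a description). The share of loss bins on chromosome 19 was 4.59% in cell 1 (interval 3.05 to 6.61%) and 2.18% in cells 2 to 4 together (interval 1.23 to 3.58%), an odds ratio of 2.16 that did not pass adjustment (two-sided Fisher's exact p = 0.0182, adjusted p = 0.345 over 19 chromosomes). By this test 0 chromosomes passed after adjustment and 1 had an unadjusted p under 0.05. The share of cell 1's loss bins missing elsewhere ran from 7 of 14 on X and 58.1% on chromosome 1 to 86.5% on chromosome 5, 86.7% on chromosome 9 and 16 of 16 on chromosome 14. Gain bins lay on 12 chromosomes, with 4 each on chromosomes 2 and 13, and 7 chromosomes had none.

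**Figure D5:**
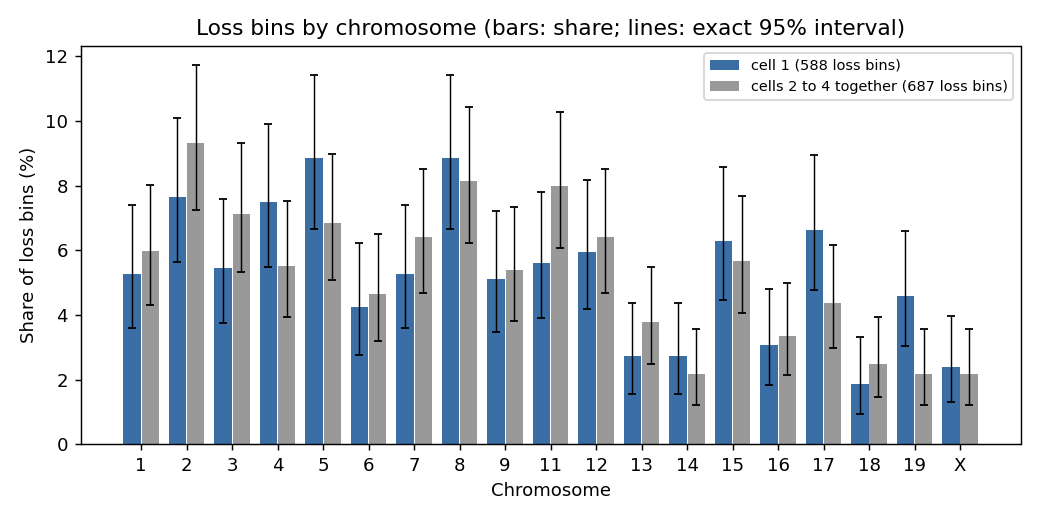
Share of loss bins on each chromosome (horizontal axis) in percent (vertical axis, bars from 0) for cell 1 and for cells 2 to 4 together, with exact 95% intervals. The intervals overlap on every chromosome, and the widest gap in ratio is on chromosome 19 (4.59% against 2.18%).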

How the data were processed

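Bisulfite reads came from 4 single liver cells and a pool. The submitters' processing notes name Bismark 0.7.6, Bowtie2 2.0.0, cutadapt 1.0, Trim Galore 0.2.2, CASAVA 1.4 and build mm10, with no order of steps. The authors deposited, for each cell, lists of bins with a score from 0 to 1000. The score's definition, the call limits and the covered bins are not given in the sources used here, so depth is unknown and intervals cover counting error only.

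Entries of 10 kb were used, with starts on a grid of 1 kb, on 19 chromosomes. Chromosome 10 was not analysed here. The pool entered only through the calls. Genes (47283), promoters (30970) and miRNAs came from RefSeq tables of GRCm38.p6, the build that mm10 names. A bin was assigned to a gene within 2000 bp, and to a location by its midpoint (gene ends within 1000 bp). Shares have exact Clopper-Pearson 95% intervals. Fisher's exact tests were two-sided with Benjamini-Hochberg adjustment and a threshold of 0.05, and scripts were tested on simulated bins (Python 3.11.15, scipy 1.17.1).

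Of 550 symbols in 11 lists, 520 were annotated on the chromosomes used. Genes named were list genes with a bin, all genes of gain bins, protein-coding genes with 2 or more separate loss bins, and those of the 15 lowest-scoring and 5 highest-scoring loss bins missing elsewhere that had a protein-coding gene. Other genes were named after their values were seen. A few genes that the rule covers are counted but not reported by name here. Members and lists were chosen with earlier results of these data known. The alternatives tried concerned the matching of bins, the gene margins, protein-coding genes only, merged stretches, a stricter score, other distances and leaving out each other cell.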

Additional observations from a re-analysis of the deposited data

Results flagged for a closer look

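Over the 4 cells, 34 measures were checked for a cell that stood far from the other 3, and 4 did. The measures depend on one another, and in some of those flagged the other 3 cells had equal values. No chance rate is therefore set beside this count. The median score of gain bins was highest in cell 1, at 864.5, against 833 in each of the other cells. The median score of loss bins was lowest in cell 4, at 333, as were the chromosomes with a loss bin in cell 4, at 17 against 19 in the others. The share of loss bins on chromosome 16 was highest in cell 4, at 6.49%. The files of cell 1 also held 9 short entries of 100 bp that the comparisons did not use. The 8 loss entries lay at 5 positions on chromosomes 4, 5, 7, 8 and 9, with scores from 91 to 615, and 3 of them shared the position 150224172 on chromosome 5 (182, 250 and 615). The gain entry lay on chromosome 2 (850).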

How the results depend on the processing

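The genic share of loss bins moved with the rule that placed a bin: 61.2% without a margin around genes, 56.8% with protein-coding genes only and 76.0% when any overlap counted, against 65.6%. The number of loss bins with a neighbour was 264 within 500 kb and 66 within 50 kb, against 98 within 100 kb. Loss bins missing elsewhere numbered 409 when bins within 10000 bp matched, and 437 to 494 when 1 of the other cells was left out, against 430. Gain bins missing elsewhere numbered 23 to 26 when a cell was left out, against 23. In all settings run, the 5 tests of genic share had a lowest adjusted p of 0.833 (Fisher's exact, odds ratios 0.755 to 1.53), and the odds ratio of chromosome 19 stayed between 1.92 and 2.37 with an adjusted p of 0.345 to 0.640. Counting only loss bins missing elsewhere, ion channel genes with a loss bin fell to 3 and signalling genes to 2, while 10000 bp around genes gave 1 liver transcription factor and 1 insulin pathway gene. No paired analysis was possible because each cell is a single library whose calls were already set against 1 pool. Unknown depth limits every count, since a missing bin may be an uncovered one.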
